A study of Mus musculus with 10 samples.

Results

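The 10 genes described here are transcriptional targets and modulators of Notch signalling. They are the Hairy/Enhancer-of-split related genes Hey1, Hey2, Heyl, Hes1, Hes5 and Hes6, the feedback regulator Nrarp, and the Fringe genes Lfng, Mfng and Rfng. Members were all probe sets whose platform gene symbol was one of the 10 names. This gave 17 of the 45101 probe sets on the array, with every gene represented. Probe sets needed at least 3 of 10 arrays above 7.15, the median of the whole table, which kept 12 of the 17 and 8 of the 10 genes. Hey2 and Hes5 did not pass this filter.

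Expression was measured on 10 Affymetrix arrays of osteoblast RNA, osteoblasts being the cells that form bone. The mice were 2 to 3 days old and their background strain is labelled C5BL6. In all, 3 arrays came from mice with osteoblast-specific constitutive expression of β-catenin (β-catenin active), 3 from mice with FoxO1 deleted in osteoblasts (FoxO1 deleted) and 4 from wild-type mice. The promoter or Cre that restricted either change to osteoblasts, the altered part of either gene, and whether a sample held 1 animal or a pool are not given in the sources used here. Sex is labelled as indeterminate. Since separate animals are not stated, the p-values speak of the spread among these arrays, some of which may be technical.

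Notch receptors are cut after they bind a ligand on a neighbouring cell, and the released intracellular domain joins the DNA-binding protein RBPJ and Mastermind-like coactivators to switch on target genes. Hes and Hey proteins are basic helix-loop-helix repressors that carry out much of the response, Nrarp limits the activity of the intracellular domain, and Fringe proteins are glycosyltransferases that modify the receptor and so change which ligands it answers to. In bone, Notch signalling is known to restrain osteoblast differentiation, and β-catenin is the nuclear carrier of canonical Wnt signals.

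RefSeq promoter windows of build GRCm38.p6, from 250 bases before to 50 bases after the start of transcription, were matched for 6 of the 10 genes (7 windows). Hey1, Heyl, Hes1 and Mfng were not matched. The windows were searched on both strands for TGGGAA, the core that RBPJ binds. Of the 7 windows, 3 held it, those of Hes5, Hey2 and Lfng, each with 2 matches, against 25.6% of all 32851 windows in the table. These 3 are shown because they carry the letters of the pathway's own DNA-binding protein, with capitals marking TGGGAA or its reverse complement TTCCCA. The Hes5 window is chr4:154960673-154960972 on the plus strand, the Hey2 window chr10:30842734-30843033 on the minus strand and the Lfng window chr5:140607091-140607390 on the plus strand.
Hes5: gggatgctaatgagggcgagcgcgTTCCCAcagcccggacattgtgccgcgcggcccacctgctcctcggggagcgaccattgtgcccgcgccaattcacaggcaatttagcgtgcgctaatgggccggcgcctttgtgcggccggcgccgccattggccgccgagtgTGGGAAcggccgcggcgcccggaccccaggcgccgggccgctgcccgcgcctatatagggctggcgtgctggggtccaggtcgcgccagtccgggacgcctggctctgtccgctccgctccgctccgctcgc
Hey2: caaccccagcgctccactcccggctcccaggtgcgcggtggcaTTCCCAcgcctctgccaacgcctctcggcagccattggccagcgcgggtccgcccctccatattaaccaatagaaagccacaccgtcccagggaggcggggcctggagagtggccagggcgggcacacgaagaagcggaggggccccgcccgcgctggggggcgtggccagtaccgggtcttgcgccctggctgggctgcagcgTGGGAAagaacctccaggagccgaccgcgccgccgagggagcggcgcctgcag
Lfng: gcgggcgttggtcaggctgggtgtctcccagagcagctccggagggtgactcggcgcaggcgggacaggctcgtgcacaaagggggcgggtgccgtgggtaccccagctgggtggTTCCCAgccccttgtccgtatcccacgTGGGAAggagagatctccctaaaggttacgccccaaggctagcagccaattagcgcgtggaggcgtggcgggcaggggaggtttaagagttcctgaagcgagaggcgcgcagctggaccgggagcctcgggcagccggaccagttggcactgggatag
The Nrarp window, chr2:25180508-25180807 on the plus strand, is shown because Nrarp had the largest difference between β-catenin active and wild-type arrays among the tested members with a window. Its capitals mark CACGTG, an E-box of the kind that Hey and Hes repressors can bind, which 7.15% of all windows held.
Nrarp: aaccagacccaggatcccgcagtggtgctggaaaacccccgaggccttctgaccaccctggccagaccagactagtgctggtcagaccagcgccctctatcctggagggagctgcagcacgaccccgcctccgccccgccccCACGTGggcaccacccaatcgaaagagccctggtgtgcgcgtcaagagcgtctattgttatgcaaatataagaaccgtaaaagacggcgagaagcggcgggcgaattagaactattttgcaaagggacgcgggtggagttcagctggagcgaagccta
The Lfng window held CACGTG as well, overlapping its second TGGGAA. The letters CTTTGA, the core bound by the TCF and LEF partners of β-catenin, were searched on both strands too and matched 0 of the 7 windows and 5257 of all 32851 windows, which says only that these letters are not in these stretches. A match is a description of the sequence and not a binding site.

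Expression values are MAS5 signal on the log2 scale, and levels of different probe sets are not compared with each other. The array medians lay between 7.02 and 7.22. Wild type 1 and 2 correlated at 0.990 over the 11357 genes tested and wild type 3 and 4 at 0.989, whereas wild-type arrays of different pairs correlated at 0.971 to 0.973, so the 4 may hold fewer than 4 independent samples. Xist, the RNA that coats the inactive X chromosome, read 5.91 to 7.06 in the 3 arrays with active β-catenin. FoxO1 deleted 2 and 3 and wild type 3 and 4 read 14.05 to 14.43, and FoxO1 deleted 1 and wild type 1 and 2 read 7.29 to 8.96. The Y-linked genes Eif2s3y and Kdm5d averaged 11.06 ± 0.26 and 9.51 ± 0.24 in β-catenin active arrays (SD). They averaged 6.03 ± 4.50 and 5.85 ± 3.18 in FoxO1 deleted and 7.38 ± 4.41 and 6.18 ± 4.03 in wild-type arrays. The arrays with active β-catenin thus read as male and the other genotypes as mixed, so sex and genotype cannot be fully told apart. Ctnnb1, which encodes β-catenin, averaged 14.45 ± 0.04 in β-catenin active and 14.48 ± 0.09 in wild-type arrays (SD), and Foxo1 averaged 9.87 ± 0.24 in FoxO1 deleted and 10.04 ± 0.07 in wild-type arrays. Neither passed limma's test (adjusted p = 0.941 and 0.706), and another Ctnnb1 probe set differed by -0.34 with active β-catenin (adjusted p = 0.0946 over all kept probe sets). Other kept Foxo1 probe sets differed by 0.05 and 0.10 between FoxO1 deleted and wild type (adjusted p = 0.929 and 0.904 over all kept probe sets). Where these probe sets lie relative to the altered parts is not known, so their values do not check either genotype. Of 10 osteoblast markers, 7 had a probe set and all 7 passed the filter, with Col1a1 averaging 15.16, Col1a2 15.43 and Ibsp 14.77 over the 10 arrays. Markers of other tissues read high too, with Acta1 of skeletal muscle averaging 14.79 and Ctsk of osteoclasts 14.52. The osteoblast levels therefore do not show how pure the samples were.

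Hey1 stood apart among the 10 genes. It is a repressor known as a target of both Notch and bone morphogenetic protein signals in osteoblast cultures. Hey1 read 10.63, 10.17 and 10.53 in β-catenin active 1, 2 and 3, against 9.17, 9.19, 8.69 and 8.60 in wild type 1 to 4. Every array with active β-catenin lay above every wild-type array, by at least 0.98. The means were 10.44 ± 0.24 (SD, n = 3) in β-catenin active and 8.91 ± 0.31 (SD, n = 4) in wild type, a log2 difference of 1.53 ± 0.24 (SE), or 2.89-fold, with a 95% interval of 0.99 to 2.07. This passed limma's moderated test, fitted over all 11357 genes with Benjamini-Hochberg adjustment (adjusted p = 0.0181). Its call was lost without wild type 3 (adjusted p = 0.0561), wild type 4 (0.0602), β-catenin active 1 (0.0826) or β-catenin active 3 (0.0740), and with the similar wild-type arrays averaged in pairs (0.187). The wild-type values themselves split with Xist, at 9.17 or more in the arrays with low Xist signal and at 8.69 or less in those with high signal. The same split separates the similar pairs 1 and 2 from 3 and 4, so Xist and pair cannot be told apart. In FoxO1 deleted the low-Xist array 1, at 8.50, lay between the high-Xist arrays 2 and 3, at 9.29 and 8.22. Among arrays with low Xist signal alone, 3 with active β-catenin and 2 of wild type, the log2 difference was 1.26. This subset was chosen after the data were seen. Its 2 wild-type arrays are the similar pair 1 and 2 (correlation 0.990), which may understate the spread, so no p-value is given for it.

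In FoxO1 deleted 1, 2 and 3 Hey1 read 8.50, 9.29 and 8.22. FoxO1 deleted 2 exceeded all wild-type arrays, and the other 2 lay below all of them. The mean of 8.67 ± 0.55 (SD, n = 3) gave a log2 difference from wild type of -0.24 ± 0.24 (SE), with an interval of -0.78 to 0.29 and a limma adjusted p of 0.835. It was -0.55 without FoxO1 deleted 2 (adjusted p = 0.404), -0.02 without FoxO1 deleted 3 (0.998), -0.16 without FoxO1 deleted 1 (0.888), and -0.16 and -0.15 without wild type 1 and 2 (0.942 and 0.950). Restricted to the low-Xist arrays, which hold only FoxO1 deleted 1 against wild type 1 and 2, it was -0.68. The order of the genotype means was therefore β-catenin active, wild type, FoxO1 deleted, and FoxO1 deleted and wild type did not differ beyond their spread. Set directly against FoxO1 deleted, β-catenin active arrays were higher for Hey1 by 1.77 ± 0.26 (SE) on the log2 scale, or 3.42-fold, with no overlap and a limma adjusted p of 0.0121. That call was lost without β-catenin active 3 (adjusted p = 0.0662) or FoxO1 deleted 1 (0.0623), while averaging the similar wild-type arrays left it in place (0.0421). With Xist signal as a term the log2 difference was 1.39 against wild type and 1.604 against FoxO1 deleted, and both calls were lost (adjusted p = 0.156 and 0.245).

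**Figure D1:**
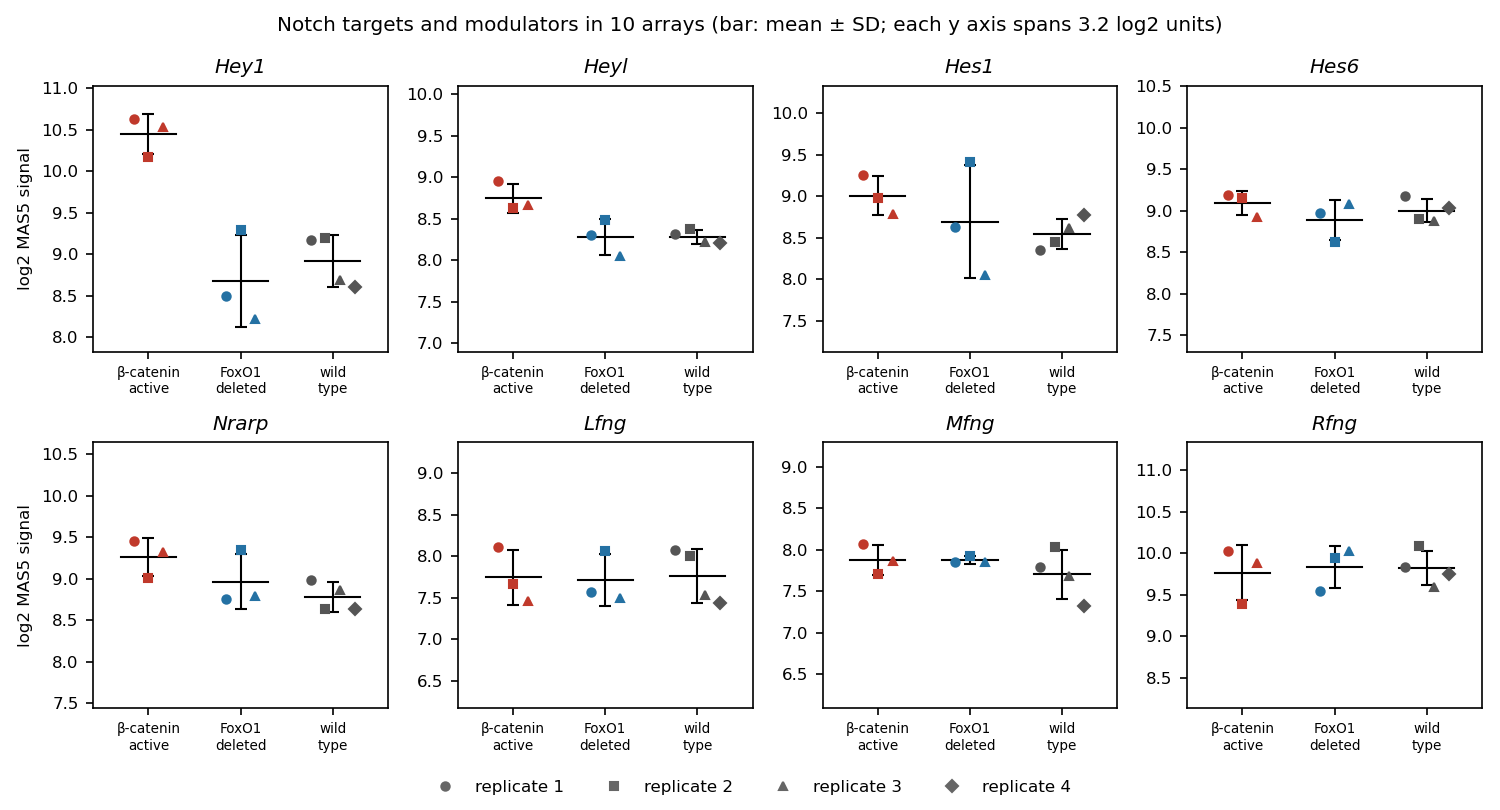
Log2 MAS5 signal (y axis, each spanning 3.2 units) of the 8 tested genes in β-catenin active, FoxO1 deleted and wild-type arrays. Points are single arrays with the replicate number as shape, lines with bars are mean ± SD. Hey1 reads 10.17 to 10.63 with active β-catenin and 8.60 to 9.19 in wild type, and FoxO1 deleted 2 sits above the other FoxO1 deleted arrays for Hey1, Heyl, Hes1, Nrarp and Lfng.

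Hey1 was the only member to pass in either of these comparisons. In β-catenin active against wild type, 1 of 8 tested members rose and 7 did not pass, where 0.784% of all genes passed in either direction and 0.599% rose. Over the 12 kept probe sets fitted one by one, 1 passed as well, where 0.507% of all kept probe sets did. The 8 differences had a median of 0.32, beside 0.00500 for all genes, and 6 of 8 were positive, beside 51.1% of all genes. For 4 of the 8, Hey1, Heyl, Hes1 and Nrarp, every β-catenin active array lay above every wild-type array, which held for 7.27% of all genes tested. All 8 representing probe sets read above 7.15 in all 10 arrays, so none passed the filter through 1 genotype alone. Between β-catenin active and FoxO1 deleted, again 1 of 8 was higher past the threshold, where 0.669% of all genes passed and 0.581% did so higher, and the median difference was 0.25, beside 0.00333 for all genes. Between FoxO1 deleted and wild type 0 of 8 passed limma's test, where 0.0264% of all genes did. There 0 of 8 had an unadjusted p under 0.05, where 7.83% of all genes did, and the median difference was 0.01. The 3 comparisons share arrays, so their values are set side by side and not correlated.

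**Figure D2:**
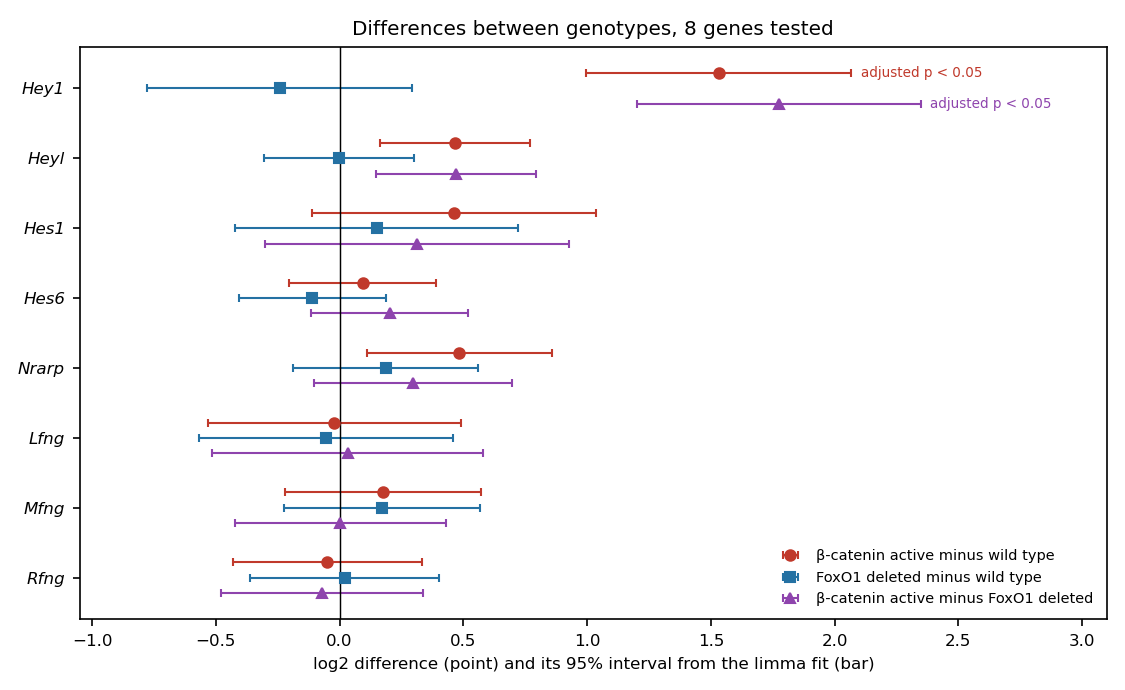
Log2 difference (x axis) with its 95% interval from the limma fit for each of the 8 tested genes (rows), in the 3 comparisons between genotypes. Hey1 lies at 1.53 for β-catenin active minus wild type and at 1.77 for β-catenin active minus FoxO1 deleted, the 2 differences that passed, while Lfng and Rfng lie near 0 in all 3.

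Heyl, a Hey repressor known from vascular smooth muscle, followed Hey1 at a smaller size. Its brightest probe set (1419302_at) read 8.95, 8.63 and 8.67 in β-catenin active arrays, against 8.32, 8.38, 8.22 and 8.21 in wild type. FoxO1 deleted arrays read 8.31, 8.48 and 8.05. The β-catenin active arrays did not overlap with either other genotype. The log2 difference from wild type was 0.47 ± 0.14 (SE), or 1.38-fold, with an interval of 0.17 to 0.77, and it did not pass (limma adjusted p = 0.166; unadjusted p = 0.00585). Against FoxO1 deleted it was 0.47 ± 0.15 (adjusted p = 0.335), and FoxO1 deleted differed from wild type by -0.00250, with an interval of -0.30 to 0.30. The second kept probe set of Heyl (1438886_at) differed by 0.60 between β-catenin active and wild type and overlapped between them, with 8.80 in β-catenin active 1 but 7.88 in β-catenin active 2 against 8.10 in wild type 1. The dimmest one (1419303_at) read 5.70 to 6.69 in β-catenin active arrays and 3.2 to 5.66 in wild type, all under the table's median.

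Over the 10 arrays Heyl was also the member whose values ran closest to those of Hey1. Its Pearson correlation with Hey1 was 0.951, at rank 9 of the 11357 genes when Hey1 itself is counted first. Nrarp correlated at 0.772 and Hes1 at 0.601, and the other members at 0.391 or less. The 5 genes most like Hey1 were Plppr4, a lipid-phosphatase related membrane protein (0.980), Ptprz1, a receptor tyrosine phosphatase (0.977), Gchfr, the regulator of GTP cyclohydrolase (0.971), Irx6, a homeobox factor (0.969), and Lpar3, a lysophosphatidic acid receptor (0.966). These 10 points share the 3 genotypes and the same arrays, so the correlations describe a common pattern of high signal in the 3 β-catenin active arrays. Plppr4, for example, averaged 9.75 in β-catenin active, 8.09 in FoxO1 deleted and 8.21 in wild-type arrays.

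Hes1, the best known Notch target and an oscillating repressor of many progenitor cells, read 9.26, 8.98 and 8.79 in β-catenin active arrays. Wild-type arrays read 8.35, 8.45, 8.62 and 8.77, all below them, though β-catenin active 3 exceeded wild type 4 by 0.02 only. The log2 difference was 0.46 ± 0.26 (SE), with an interval of -0.11 to 1.04, and did not pass (limma adjusted p = 0.532). Hes1 had the widest spread of all tested members within FoxO1 deleted, at 8.63, 9.41 and 8.05. FoxO1 deleted 2 was the highest of all 10 arrays and FoxO1 deleted 3 the lowest, so the mean of 8.70 ± 0.68 (SD, n = 3) could not be told from either other genotype (adjusted p = 0.906 against wild type). That difference was 0.15 with all arrays and -0.21 without FoxO1 deleted 2.

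Hes6, which is known to oppose Hes1 in neural cells, had no difference that passed. Its brighter probe set (1436050_x_at) read 9.19, 9.16 and 8.93 in β-catenin active, 8.97, 8.62 and 9.08 in FoxO1 deleted, and 9.18, 8.90, 8.88 and 9.04 in wild-type arrays. All 3 genotypes overlapped, and the log2 difference of β-catenin active from wild type was 0.09 ± 0.14 (SE; interval -0.20 to 0.39; limma adjusted p = 0.857). The x in its name marks probes that may also match other transcripts. The second probe set (1452021_a_at) gave 0.26 ± 0.18 for the same comparison (adjusted p = 0.651 over all kept probe sets), also with overlap.

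Hey2, known from the heart and arteries, and Hes5, known from neural progenitors, stayed under the table's median in every array. The single Hey2 probe set read 6, 5.46 and 5.95 in β-catenin active, 6.19, 5.60 and 5.88 in FoxO1 deleted, and 5.55, 5.53, 5.4 and 5.24 in wild-type arrays. The FoxO1 deleted arrays all lay above the wild-type arrays, at a signal where sizes are inexact, and no test was made. The brighter Hes5 probe set (1423146_at) ranged from 3.44 to 6.05 in β-catenin active, from 3.51 to 4.59 in FoxO1 deleted and from 3.2 to 6.11 in wild-type arrays, with overlap. The other Hes5 probe set read 4.56 or less in every array. The promoter windows of both held 2 TGGGAA matches.

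Nrarp, an ankyrin-repeat protein that binds the Notch intracellular domain and lowers its activity, is itself a Notch target. Its brighter probe set (1417985_at) read 9.46, 9.01 and 9.32 in β-catenin active arrays and 8.99, 8.64, 8.86 and 8.63 in wild type. The groups did not overlap, though only by 0.02 between β-catenin active 2 and wild type 1. The log2 difference was 0.48 ± 0.17 (SE), or 1.40-fold, with an interval of 0.11 to 0.86, and did not pass (limma adjusted p = 0.257; unadjusted p = 0.0160). FoxO1 deleted arrays read 8.76, 9.35 and 8.79, a difference from wild type of 0.19 (adjusted p = 0.815). The second Nrarp probe set (1417986_at) gave 0.23 for β-catenin active minus wild type with overlap. It gave -0.24 for FoxO1 deleted minus wild type, the opposite sign to the first.

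The 3 Fringe genes had no difference that passed. Lfng, a Fringe with a part in the segmentation clock of the embryo, read 8.11, 7.67 and 7.46 in β-catenin active arrays. It read 7.57, 8.07 and 7.5 in FoxO1 deleted, and 8.08, 8.01, 7.54 and 7.44 in wild-type arrays. Wild type 1 and 2 were higher than wild type 3 and 4, the same split as for Hey1 and Xist. The log2 difference of β-catenin active from wild type was -0.02, with an interval of -0.53 to 0.49 (limma adjusted p = 0.987), and that of FoxO1 deleted from wild type -0.05 (0.969). The other Lfng probe set read 5.20 or less in every array. Mfng ranged from 7.71 to 8.07 in β-catenin active, from 7.85 to 7.93 in FoxO1 deleted and from 7.32 to 8.03 in wild-type arrays. Its difference from wild type was 0.18 with active β-catenin (interval -0.22 to 0.57) and 0.17 with FoxO1 deleted (interval -0.23 to 0.57).

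The 2 probe sets of Rfng disagreed. The brighter one (1460704_at) ranged from 9.39 to 10.03 in β-catenin active, from 9.55 to 10.03 in FoxO1 deleted and from 9.60 to 10.09 in wild-type arrays, with log2 differences from wild type of -0.05 and 0.02. The other (1421160_a_at) read 7.52, 7.20 and 6.69 in β-catenin active, 6.62, 7 and 7.14 in FoxO1 deleted, and 7.38, 7.86, 7.73 and 7.54 in wild-type arrays. Every FoxO1 deleted array lay below every wild-type array there. That log2 difference was -0.71 ± 0.24 (SE), and it did not pass over all kept probe sets (limma adjusted p = 0.518; unadjusted p = 0.0112). Both FoxO1 deleted and β-catenin active arrays of this probe set reached under the table's median of 7.15, so its sizes are inexact.

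**Figure D3:**
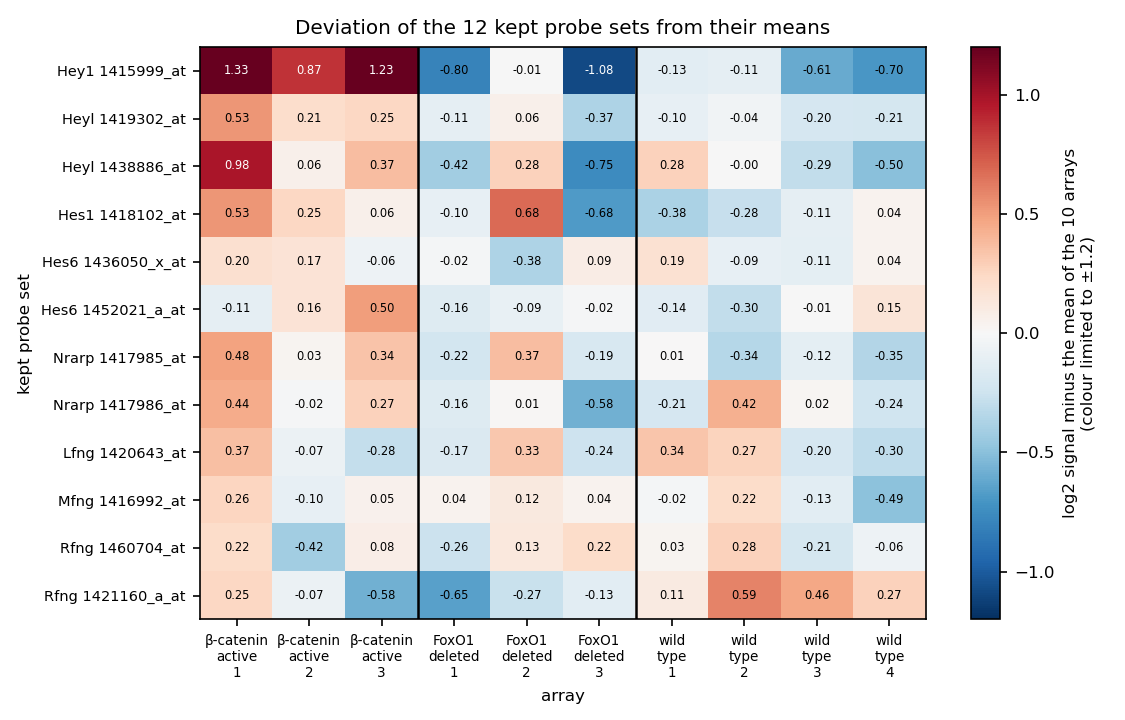
Log2 signal of the 12 kept probe sets (rows) in each of the 10 arrays (columns) minus the mean of that probe set over all arrays, with the value printed in each cell and colour limited to ±1.2. The Hey1 row is positive in the 3 β-catenin active arrays and negative in the other 7, and the β-catenin active 1 column is positive in 11 of 12 rows.

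Single arrays ran high or low across several members. β-catenin active 1 was the highest array of its genotype for 8 of the 8 tested members, where it was so for 39.9% of all genes. FoxO1 deleted 2 was the highest of its genotype for 6 of 8, among them Hey1, Heyl, Hes1, Nrarp and Lfng, where it was so for 38.9% of all genes. FoxO1 deleted 3 was the lowest for 4 of 8, among them Hey1, Heyl and Hes1, where it was so for 39.0% of all genes. Wild type 4 was the lowest wild-type array for 5 of 8, where it was so for 27.1% of all genes. The members share these arrays, so the counts describe the arrays and carry no test.

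Marker genes of vessels, where Hey and Notch genes are known to be active, ran with the same groups. Of 12 endothelial markers, all 12 passed the filter, 0 passed limma's test between β-catenin active and wild type, 10 were positive and the median log2 difference was 0.41. Their summed level, the log2 of the added linear signals, was 13.39 to 13.61 in β-catenin active, 13.19 to 13.30 in FoxO1 deleted and 13.17 to 13.21 in wild-type arrays. Kdr, the main receptor for vascular endothelial growth factor, differed by 0.42 (adjusted p = 0.0824) with active β-catenin. Of 8 markers of mural cells, the contractile cells around vessels, 8 were positive in the same comparison and 0 passed, with a median of 0.28. Their summed level was 14.83 to 15.28 in β-catenin active, 14.56 to 14.79 in FoxO1 deleted and 14.52 to 14.64 in wild-type arrays, and Rgs5, a pericyte marker, differed by 0.99 (adjusted p = 0.0684). β-catenin active 1, the highest array of its genotype for all 8 tested members, also had the highest summed level of both lists. It was the highest of its genotype for the osteoblast, leukocyte and macrophage, osteoclast, and neural and Schwann cell sums as well. It was the lowest for the chondrocyte, skeletal muscle and erythroid sums. Its high level was thus not particular to the vessel lists. FoxO1 deleted 2, the highest of its genotype for 6 of 8, was not highest in either vessel list. It had 13.29 for the endothelial and 14.70 for the mural list, against 13.30 and 14.79 in FoxO1 deleted 1. All markers of both lists passed the filter on low values, and their part in the member values was not tested. Fewer cells of a type and less RNA per cell cannot be told apart in such samples.

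Other marker lists ran differently. The summed level of 10 chondrocyte markers was 14.63 to 14.96 in β-catenin active, 14.58 to 15.88 in FoxO1 deleted and 13.98 to 14.50 in wild-type arrays. Both genotypes lay above wild type there, and β-catenin active and FoxO1 deleted overlapped. Skeletal muscle markers overlapped between genotypes, at 15.74 to 16.84 in β-catenin active, 15.88 to 16.76 in FoxO1 deleted and 15.62 to 16.66 in wild-type arrays, and split the wild-type arrays into 1 and 2 (low) and 3 and 4 (high). β-catenin active 1 and FoxO1 deleted 2 had the lowest muscle sums of their genotypes, at 15.74 and 15.88. How the muscle sums relate to the member values was not tested. Osteoblast marker sums overlapped between genotypes, at 17.13 to 17.28 in β-catenin active, 17.10 to 17.38 in FoxO1 deleted and 17.02 to 17.17 in wild-type arrays. Of 7 osteoblast markers tested, 6 were positive in each altered genotype against wild type, with medians of 0.108 and 0.107, and 0 passed limma's test. Erythroid markers ran lower in both altered genotypes than in wild type. Of 6 tested, 0 passed limma's test between β-catenin active and wild type, 0 were positive and the median log2 difference was -1.95. Between FoxO1 deleted and wild type 0 passed as well, 0 were positive and the median was -1.1. Their summed level was 9.73 to 10.30 in β-catenin active, 9.69 to 11.21 in FoxO1 deleted and 10.76 to 12.12 in wild-type arrays, so β-catenin active and wild type did not overlap, and wild type 1 and 2 were higher than wild type 3 and 4. Its part in the member values was not tested. Of 8 leukocyte and macrophage, 7 osteoclast and 5 neural and Schwann cell markers tested, 0 passed limma's test between either altered genotype and wild type, and the summed levels of these lists overlapped between genotypes. Most differences were negative. With active β-catenin 3 of 8, 0 of 7 and 2 of 5 were positive, with medians of -0.18, -0.32 and -0.65. With FoxO1 deleted 1 of 8, 0 of 7 and 2 of 5 were positive, with medians of -0.11, -0.44 and -0.54. The summed level of the 6 Hes and Hey genes was 11.39 to 11.73 in β-catenin active, 10.50 to 11.05 in FoxO1 deleted and 10.68 to 10.86 in wild-type arrays. That sum contains Hey1 and the untested Hey2 and Hes5, so it is not separate from the Hey1 result.

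**Figure D4:**
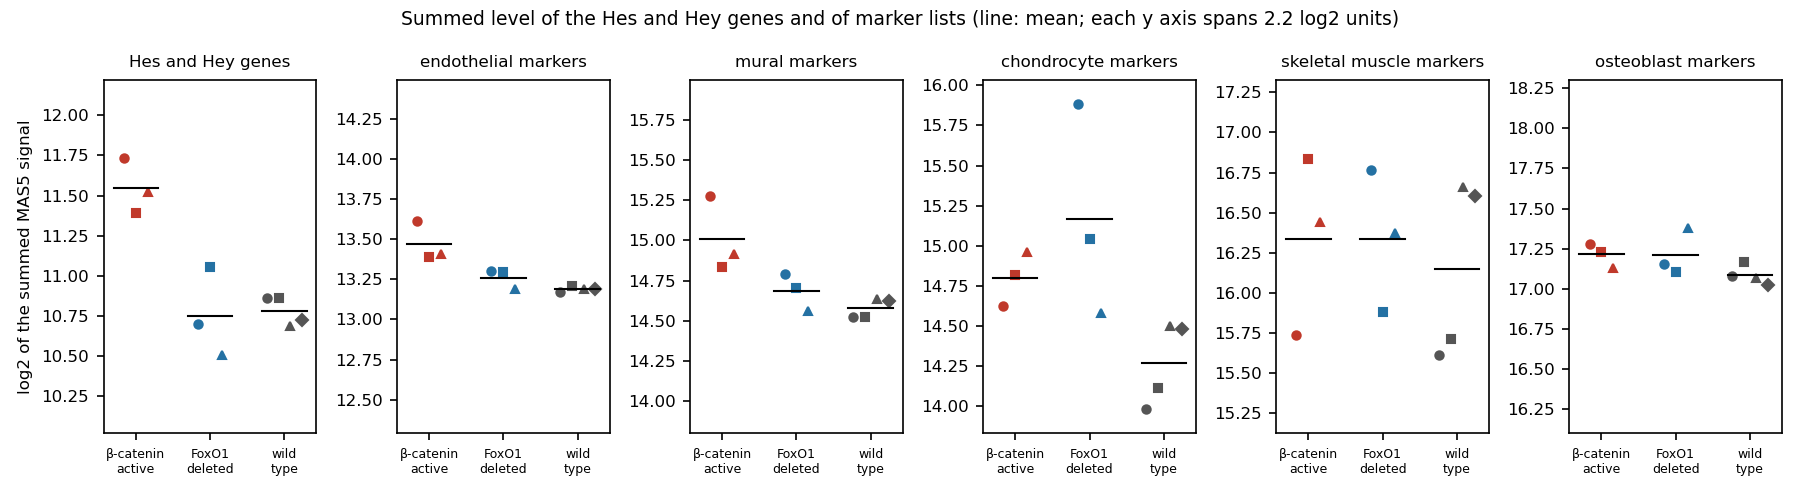
Log2 of the summed linear MAS5 signal (y axis, each spanning 2.2 units) of the 6 Hes and Hey genes and of 5 marker lists in β-catenin active, FoxO1 deleted and wild-type arrays. Points are single arrays (circle, square, triangle and diamond for replicates 1 to 4) and lines are means. The Hes and Hey sum, which contains Hey1, the endothelial sum and the mural sum of the 3 β-catenin active arrays all lie above those of the other 7 arrays.

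The rest of the Notch pathway was read from 52 genes in 5 lists, of which 45 were tested. In limma's test 0 of the 45 passed between β-catenin active and wild type, 0 between FoxO1 deleted and wild type and 0 between β-catenin active and FoxO1 deleted. At an unadjusted p under 0.05 there were 7, 5 and 3, where 12.1%, 7.83% and 8.03% of all genes lay in those comparisons. The median log2 difference between β-catenin active and wild type was 0.12 over the 45 genes. Among the 8 ligands and receptors tested, Notch1 averaged 10.39 ± 0.10 in β-catenin active and 9.99 ± 0.15 in wild-type arrays (log2 difference 0.405, adjusted p = 0.0931), and Notch3, the receptor of mural cells, averaged 10.69 ± 0.20 in β-catenin active and 10.25 ± 0.04 in wild-type arrays (0.44, adjusted p = 0.163). Between FoxO1 deleted and wild type Notch1 differed by 0.25 (adjusted p = 0.609) and Dll1, a ligand, by -0.42 (0.651). Between β-catenin active and FoxO1 deleted Notch3 differed by 0.37 (0.477) and Dll1 by 0.52 (0.567).

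Of 13 genes that modify or route the receptor, Numb, which lowers Notch activity by sorting the receptor away from the membrane, had the smallest p. Numb averaged 10.47 ± 0.09 in β-catenin active, 10.35 ± 0.13 in FoxO1 deleted and 10.06 ± 0.09 in wild-type arrays, with no overlap between either genotype and wild type. Its log2 differences from wild type were 0.42 (adjusted p = 0.0680) and 0.29 (adjusted p = 0.494). Dtx3, a Deltex family ubiquitin ligase, differed by 0.45 with active β-catenin (adjusted p = 0.162), and its relative Dtx4 by -0.40 with FoxO1 deleted (adjusted p = 0.581). Between the altered genotypes Dtx3 differed by 0.27 (0.680) and Fbxw7, which marks the Notch intracellular domain for degradation, by 0.18 (0.689). Among 7 genes of the nuclear complex the smallest p between β-catenin active and wild type belonged to Rbpj, the DNA-binding partner, at 0.14 (adjusted p = 0.687), and Maml1, a coactivator, at -0.12 (0.699). Between FoxO1 deleted and wild type Ep300, an acetyltransferase, differed by 0.19 (0.663) and Maml1 by -0.16 (0.687). Between β-catenin active and FoxO1 deleted Spen, a corepressor partner of RBPJ, differed by -0.37 (0.709) and Ep300 by -0.07 (0.933).

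The 7 proteases and secretase subunits tested gave no difference that passed. Aph1b, a γ-secretase subunit, differed by 0.22 between β-catenin active and wild type (adjusted p = 0.532), and Adam10, which makes the first cut in the receptor, by -0.18 between FoxO1 deleted and wild type (0.651). Adam17, a related protease, differed by 0.16 (0.649) and 0.12 (0.820) in the same 2 comparisons. Between β-catenin active and FoxO1 deleted Aph1b differed by 0.18 (0.821) and Adam10 by 0.14 (0.821). Among 10 partners of the Hes and Hey proteins, the Groucho-family corepressor Tle2 differed by 0.52 (adjusted p = 0.276) and Id3, which sequesters helix-loop-helix proteins, by 0.31 (0.307) between β-catenin active and wild type. Id3 did not overlap between these 2 genotypes and Tle2 did. Between FoxO1 deleted and wild type Tle5 differed by -0.225 (0.689) and the deacetylase Sirt1 by -0.228 (0.732). Between β-catenin active and FoxO1 deleted Id3 differed by 0.30 (0.587) and Tle3, another Groucho-family corepressor, by -0.45 (0.661).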

How the data were processed

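Total RNA of osteoblasts was hybridised to 10 Affymetrix arrays as biotin-labelled cRNA made from 500 ng, per the labels' protocols. The deposited values are log2 signals, and MAS5 is the method that the submitters' processing notes list (version not given). The base of 2 follows from the values, since the mean of the linear values, trimmed by 2% at each end, was near 500 in every array. Whether arrays were normalized to each other is not stated in those sources. The number of arrays limits the precision.

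Of 45101 probe sets, 34958 had 1 gene in the platform annotation, 932 several and 9211 none listed. Symbols were updated by gene ID through RefSeq (GRCm38.p6), which held 99.4% of them. Probe sets passed with at least 3 of 10 values over 7.15 (20127 with 1 gene), and each of 11357 genes was represented by its brightest. Dim values were not floored.

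All 10 arrays entered one limma fit (version 3.58.1, R 4.3.3) with a mean per genotype, eBayes, a mean-variance trend and 7 residual degrees of freedom. Tests were two-sided, genes were called below 0.05 after Benjamini-Hochberg adjustment, and the procedure was tested on simulated data. A second fit took each kept probe set by itself. Named genes are the members, the 2 targeted genes, the genes with the 2 smallest p-values of each other Notch list and comparison, since none passed, and the 5 genes most correlated with Hey1. Kdr, Rgs5, Acta1, Ctsk, Eif2s3y and Kdm5d were named after their values were seen, as were the array-level patterns. Members and lists were chosen with earlier results of these data known. Alternatives are given in the closing section, and Hey2 and Hes5 were left out of the fits.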

Additional observations from a re-analysis of the deposited data

How the results depend on the processing

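Hey1 kept a positive difference in both comparisons of β-catenin active under all settings run. Leaving out each array gave 1.43 to 1.67 for β-catenin active minus wild type (adjusted p 0.00424 to 0.0826) and 1.55 to 2.08 for β-catenin active minus FoxO1 deleted (0.00371 to 0.0662). Over these runs the members called ranged from 0 to 1 in both comparisons and stayed at 0 for FoxO1 deleted minus wild type. Genes called ranged from 31 to 130 for β-catenin active minus wild type, 0 to 7 for FoxO1 deleted minus wild type and 29 to 62 for β-catenin active minus FoxO1 deleted. Leaving out wild type 3, wild type 4, β-catenin active 1 or β-catenin active 3 left 0 members called against wild type, and without β-catenin active 3 or FoxO1 deleted 1, 0 passed between the altered genotypes.

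Same-numbered arrays did not deviate together (correlations -0.287 to 0.290 over 9 pairs, 2 best with their own number), so the numbers were not taken as pairs. With the number as a block, 15, 0 and 22 genes were called in the 3 comparisons in the above order, and 0, 0 and 1 members. The block gave -0.00 (-0.00333) for Rfng in FoxO1 deleted minus wild type, against 0.02 without it. Averaging the similar wild-type arrays gave 9, 0 and 49 genes and 0, 0 and 1 members. Xist signal as a term gave 10, 2 and 6 genes and 0 members in each. Fitting only 2 groups gave 141, 1 and 25 genes. Array weights gave 149 and 29 genes in the first and second comparison, and quantile normalization and no variance trend gave 5 each in the second. After the data were seen, Xist as high or low was added as a term (35, 2 and 18 genes, 0 members in each), as were low-Xist arrays alone (175, 96 and 12 genes) and high-Xist arrays alone, which hold FoxO1 deleted and wild type (0 genes). The fit of low-Xist arrays held 1 array of FoxO1 deleted and the similar wild type 1 and 2, which may understate the spread. Its counts of genes are therefore not read as results. Causes were not tested.

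Of 608 recomputed member differences, 541 kept direction and call, 12 lost a call, all of Hey1, and 55 changed sign, all among differences that had not passed. For FoxO1 deleted minus wild type, Heyl became 0.0383 with median centring, 0.0193 with array weights, 0.01 with either Xist term (0.0120 and 0.0140) and 0.05 in high-Xist arrays. Nrarp became -0.0271 with probe sets averaged and -0.06 (-0.055) in low-Xist arrays, and Mfng -0.06 there. Rfng became -0.34 with probe sets averaged, -0.16 with array weights and -0.42 (-0.415) in low-Xist arrays. In high-Xist arrays Hey1 became 0.11 and Lfng 0.30 (0.295). For β-catenin active minus wild type, Mfng became -0.03 in low-Xist arrays. For β-catenin active minus FoxO1 deleted, Mfng became -0.01 with quantile normalization (-0.0140) and array weights (-0.0117), -0.0333 with median centring, -0.19 with Xist signal and -0.15 with Xist as high or low. Lfng became -0.00 (-0.00333) with median centring, -0.15 (-0.154) with Xist signal and -0.13 with Xist as high or low. Rfng became 0.0733 with probe sets averaged, 0.0830 with array weights and 0.22 in low-Xist arrays. Leaving out 1 array gave, for β-catenin active minus wild type, -0.20 to 0.12 for Lfng and -0.18 to 0.14 for Rfng. For FoxO1 deleted minus wild type it gave -0.55 to -0.02 for Hey1, -0.10 to 0.11 for Heyl, -0.21 to 0.47 for Hes1, -0.21 (-0.205) to 0.03 (0.0250) for Hes6, -0.01 (-0.00500) to 0.29 for Nrarp, -0.23 to 0.0525 for Lfng and -0.08 (-0.0750) to 0.17 (0.165) for Rfng. For β-catenin active minus FoxO1 deleted it gave -0.01 to 0.67 for Hes1, -0.15 to 0.21 for Lfng, -0.0917 to 0.0883 for Mfng and -0.22 (-0.215) to 0.12 for Rfng. Signals under 7.15, as for Hey2 and Hes5, give inexact sizes.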
